A study of Mus musculus with 6 samples.

Results

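The transcripts of 45 genes of the DNA replication machinery were followed in mouse epidermal cells with and without a Cre recombinase directed against Rnaseh2b. The 45 genes were chosen by name, as the subunits and close partners of the proteins that license, unwind and copy DNA. Earlier results of these data were known when they were chosen. All 45 were found among the 38924 genes of the count table, and all 45 passed the low-count filter that left 15525 genes for testing. The cells were epidermal cells positive for CD49f (integrin alpha 6, which anchors basal keratinocytes to the basement membrane), sorted from skin. All 6 libraries came from mice with the Rnaseh2b genotype flox/flox. In 3 of them the genotype was K14-Cre+, in which the keratin 14 promoter drives Cre in basal keratinocytes and their descendants, and in the other 3 it was K14-Cre-. Age and strain are not given in the labels. The labels do not state that replicates came from different mice, so p-values measure the spread between these libraries, which may be technical in part. Each group held both male and female libraries by Xist and Y-linked counts, so not all libraries of a group came from the same mouse. The comparison asks whether cells that lost Rnaseh2b, a subunit of the enzyme that removes ribonucleotides from DNA, carried other levels of replication transcripts.

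Rnaseh2b itself had 172, 90 and 69 counts in the Cre-positive libraries and 543, 504 and 570 in the Cre-negative ones, or 5.29, 3.98 and 3.28 against 21.8, 20.7 and 21.7 CPM (counts scaled by library size). The groups lay far apart, and Rnaseh2b fell by 2.34 on the log2 scale (SE 0.17, adjusted p = 0.0102, edgeR quasi-likelihood test). Its adjusted p was 0.0508 without Cre-positive replicate 2 and 0.0841 to 0.124 without any 1 Cre-negative library. Libraries held between 22948779 and 31718094 counts. The basal keratinocyte marker Krt5 was at 7656 to 9075 CPM, while Krt10, a keratin of the suprabasal layers, was at 40773 to 67532 CPM, so the sorted cells also held much RNA of differentiating keratinocytes. Cre-positive replicate 3 stood apart from the other libraries: its counts differed from those of Cre-positive replicates 1 and 2 with a chi-square per degree of freedom of 69.97 and 47.85, against 14.8 between those 2 and 9.28 to 14.01 among the Cre-negative libraries. It was also the only female library of its group by Xist and Y-linked counts, whereas the Cre-negative group held 2 female libraries and 1 male. The fold changes of the replication genes are therefore also given without it.

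Replication begins in G1, when the origin recognition complex (ORC) with Cdc6 and Cdt1 loads the MCM2-7 ring onto DNA as an inactive helicase. In S phase Cdc45 and the GINS complex turn the ring into a working helicase, polymerase alpha with primase lays down primers, and polymerases delta and epsilon extend them on the sliding clamp Pcna, which the Rfc complex loads. Transcription of most of these genes is driven by E2F factors when cells pass from G1 to S, so in epidermis their transcripts mark the cycling cells, mainly of the basal layer and the hair follicle.

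Of the 45 replication genes, 44 had a log2 fold change below 0 (97.8%), where 51.0% of all genes tested did. The exception was Orc4 at 0.00. The differences were small: the median log2 fold change was -0.26 (-0.11 without Cre-positive replicate 3), against -0.00478 over all genes, and the range ran from -0.56 for Gins2 to 0.00. No replication gene passed the threshold of an adjusted p of 0.05 in edgeR, where 0.515% of all genes did (0.110% lower and 0.406% higher), and the smallest adjusted p among them was 0.156, for Pold1. DESeq2 and limma-voom also called 0 of the 45, with smallest adjusted p values of 0.0514 and 0.162. Over all 15525 genes they called 837 and 66. At an unadjusted p under 0.05 edgeR gave 9 of the 45 (20%), all lower, beside 18.8% of all genes in either direction and 8.48% lower. This count was 15 without Cre-positive replicate 1 and 7 without replicate 2, beside 21.6% and 17.4% of all genes (9.49% and 7.37% lower). It was 4 without Cre-negative replicate 2 and 2 without Cre-negative replicate 1 or 3. All-gene shares in these fits were 13.1%, 11.6% and 10.7% (5.80%, 5.12% and 4.85% lower). In 15 of the 45 (33.3%) every Cre-positive library lay below every Cre-negative one, which was so for 13.8% of all genes (28.0% in either direction), and no replication gene showed the reverse. Without Cre-negative replicate 2, 32 of the 45 (71.1%) were lower without overlap, beside 19.3% of all genes over the same 5 libraries. Leaving out any other library gave 15 to 20 (33.3% to 44.4%), beside 16.9% to 20.7% of all genes.

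The libraries did not contribute equally. Over the 45 genes, the median log2 deviation from the Cre-negative mean was -0.10 in Cre-positive replicate 1, -0.11 in replicate 2 and -0.65 in replicate 3, and it was 0.04, -0.12 and 0.06 in the Cre-negative libraries. Replicates 1 and 2 thus lay within the range of the Cre-negative libraries by this median, and replicate 3 lay far below it. All 45 genes were below every Cre-negative library in replicate 3, beside 39.6% of all genes, and 20 (44.4%) and 17 (37.8%) were so in replicates 1 and 2, beside 30.9% and 32.4% of all genes. The share in replicate 2 was thus near that of all genes. Replicate 3 was the lowest of the 6 libraries for 44 of the 45 genes, beside 31.1% of all genes, and Orc3 was lowest in replicate 2. The summed level of the 45 genes was 1738, 1738 and 1183 CPM in the Cre-positive libraries and 1944, 1729 and 1996 CPM in the Cre-negative ones. The median coefficient of variation of the 45 genes was 20.1% among the Cre-positive libraries and 6.91% among the Cre-negative ones, while over all genes it was 12.8% and 7.82%.

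**Figure D1:**
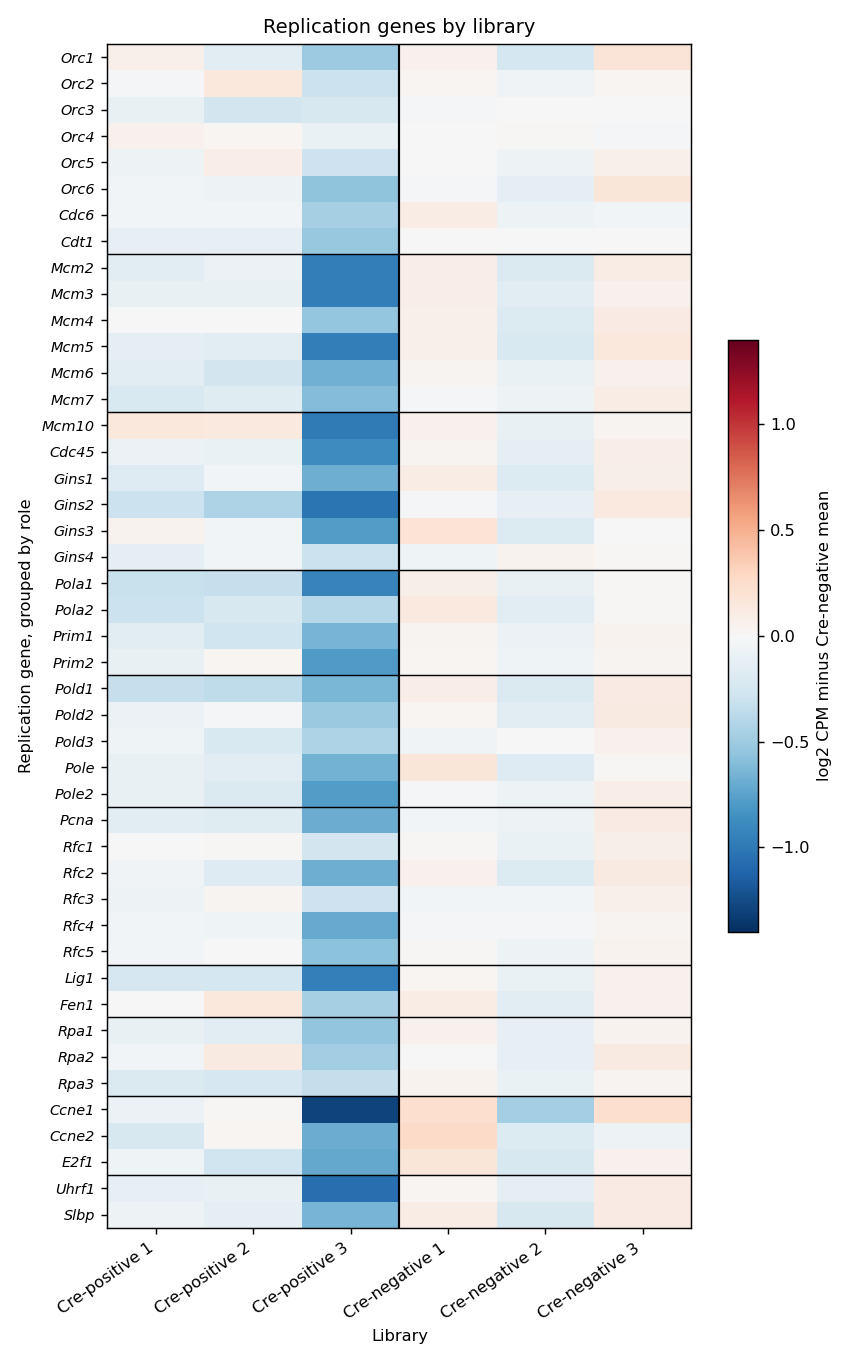
Log2 CPM of the 45 replication genes (rows, by role) in each of the 6 libraries (columns), less the mean of the 3 Cre-negative libraries; blue is lower and red higher. The column of Cre-positive replicate 3 is low throughout, with a median of -0.65, while replicates 1 and 2 have medians of -0.10 and -0.11.

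Without Cre-positive replicate 3, 39 of the 45 genes remained below 0, beside 50.5% of all genes, and the median was -0.11. At an unadjusted p under 0.05 this fit gave 8 of the 45, all lower. Of the 15935 genes it tested, 19.3% were so in either direction and 8.86% lower. It called 0 of the 45, beside 422 of the 15935 genes. The sexes were also compared apart, without a test. Among the male libraries, Cre-positive replicates 1 and 2 both lay below Cre-negative replicate 2 for 16 of the 45 genes (35.6%) and both above it for 23 (51.1%), with a median difference of 0.05. Over all genes these shares were 36.4% and 36.1%. Among the female libraries, Cre-positive replicate 3 lay below both Cre-negative libraries for 45 of the 45 genes, with a median difference of -0.71, where 43.9% of all genes were lower. Sex and the library cannot be told apart here, since the Cre-positive group held 1 female library. With sex as a covariate the median was -0.34. In that fit 13 of the 45 genes had an unadjusted p under 0.05, all lower, beside 21.8% of all genes in either direction. The share of all genes that were lower was not counted for that fit.

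Mitosis, suprabasal and hair follicle transcripts also stood apart in Cre-positive replicate 3. The 18 mitosis genes of a fixed list summed to 1223, 1286 and 655 CPM in the Cre-positive libraries and 1223, 1119 and 1279 CPM in the Cre-negative ones. All 18 were below every Cre-negative library in replicate 3, beside 39.6% of all genes. The replication genes' sum over the mitosis genes' sum was 1.42, 1.35 and 1.81 against 1.59, 1.54 and 1.56. In Cre-positive replicates 1 and 2 this ratio lay below every Cre-negative library. It lay above them in replicate 3, where the mitosis genes were lower still than the replication genes. Without replicate 3, 5 of the 18 mitosis genes lay below 0 (median log2 fold change 0.06), beside 39 of the 45 replication genes (-0.11). The 7 suprabasal markers tested all had a log2 fold change above 0, with median deviations of 0.14, 0.29 and 0.66. All 7 exceeded every Cre-negative library in replicate 3, as did 5688 of all 15525 genes. One of them, the cornified envelope gene Ivl, was at 303, 332 and 689 CPM against 241, 224 and 242 CPM. Hair follicle markers were below 0 in 7 of 8 cases, with median deviations of -0.24, -0.35 and -1.02, and the 7 basal markers had median deviations of 0.01, -0.09 and 0.21. Markers of other cell types differed in other ways. T cell markers summed to 6.09, 6.15 and 4.75 CPM in the Cre-positive libraries and 13.6, 10.1 and 11.3 CPM in the Cre-negative ones. In each Cre-positive library 4 of 4 genes were below every Cre-negative library, beside 13.8% of all genes lower without overlap, though none passed the test. The myeloid sum, 90.1, 86.2 and 64.9 CPM against 135, 104 and 99.2 CPM, joins genes that differed in opposite ways. Lyz2 rose by 1.33 on the log2 scale (adjusted p = 0.0368, edgeR) and H2-Ab1 fell by 2.29 (adjusted p = 0.0400), while Adgre1 was at 0.62 and Cd74 at -2.42 without passing. Fibroblast markers summed to 1368, 176 and 226 CPM against 196, 288 and 811 CPM, and endothelial markers to 21.3, 1.81 and 1.90 CPM against 2.65, 8.05 and 19.3 CPM. Melanocyte markers summed to 589 to 663 CPM in Cre-positive and 327 to 380.0 CPM in Cre-negative libraries. Cldn5 was at 0 counts in Cre-positive replicate 2, Cd207 in Cre-positive replicate 3 and Emcn in Cre-negative replicate 2. The part of these markers in the replication result was not tested. In bulk RNA, fewer cycling cells and less replication mRNA per cycling cell cannot be told apart.

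**Figure D2:**
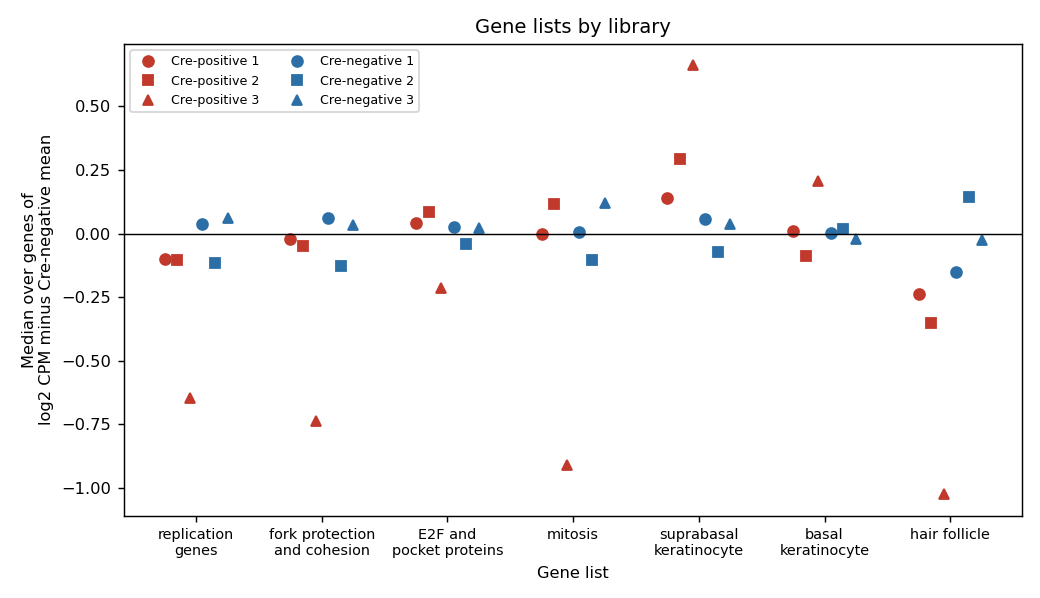
Median log2 deviation from the Cre-negative mean in each of the 6 libraries (1 point per library). Lists shown are the replication genes, fork protection and cohesion genes, E2F and pocket protein genes, and mitosis, suprabasal, basal and hair follicle markers. In Cre-positive replicate 3 the replication genes lie at -0.65, the mitosis genes at -0.91 and the suprabasal markers at 0.66.

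What the genes share beyond their function was looked for in the RefSeq promoter table (build GRCm38.p6), which holds 250 bases before to 50 after each start site and had entries for 37 of the 45 genes. The E2F letters searched on both strands were TTTCCCGC, TTTGGCGC, TTTCGCGC and TTTGCCGC. They occurred in 16 of the 37 replication genes (43.2%), against 2.61% of 27025 genes in the table, or in 34.8% of the replication genes' 46 windows against 2.26% of all 32851 windows. The letters CCAAT, a frequent promoter element, occurred in 23 of the 37 (62.2%) against 41.1% of all genes, and TTTGAA, the letters of the element that many mitosis genes carry, in 5 of the 37 (13.5%) against 20.2%. Replication genes with the E2F letters had a median log2 fold change of -0.33 and those without -0.23, with all 6 libraries. The promoters below are those of the genes with the E2F letters and the smallest unadjusted p, shown to place the letters in their context, on the gene's strand from 5′ to 3′. Capitals mark the E2F letters. The longer runs are the 180 bases up to the start site:
Pola1 (chrX:93632156-93632335, minus strand): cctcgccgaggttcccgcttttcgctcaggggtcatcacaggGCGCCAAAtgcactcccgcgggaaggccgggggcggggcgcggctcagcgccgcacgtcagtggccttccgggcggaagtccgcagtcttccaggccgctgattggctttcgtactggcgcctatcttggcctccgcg
Mcm6 (chr1:128359706-128359885, minus strand): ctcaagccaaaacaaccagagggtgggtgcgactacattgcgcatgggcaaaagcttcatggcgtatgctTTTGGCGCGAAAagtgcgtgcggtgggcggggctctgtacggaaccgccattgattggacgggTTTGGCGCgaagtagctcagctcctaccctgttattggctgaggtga
Mcm7, before the start (chr5:138171884-138172063, minus strand): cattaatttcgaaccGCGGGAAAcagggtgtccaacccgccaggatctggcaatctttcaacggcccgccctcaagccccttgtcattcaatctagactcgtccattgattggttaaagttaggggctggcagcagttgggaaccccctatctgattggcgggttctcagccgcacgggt
Orc3 (chr4:34614943-34615122, minus strand): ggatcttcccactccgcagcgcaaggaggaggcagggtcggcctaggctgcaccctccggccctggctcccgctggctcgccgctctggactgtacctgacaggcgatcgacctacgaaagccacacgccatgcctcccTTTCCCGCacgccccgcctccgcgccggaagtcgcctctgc
In Pold1, Lig1 and again in Mcm7 the letters fell after the start site, and 30 bases around them are shown:
Pold1 (chr7:44548766-44548795, minus strand): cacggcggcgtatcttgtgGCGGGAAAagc
Mcm7 (chr5:138171849-138171878, minus strand): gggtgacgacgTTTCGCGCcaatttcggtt
Lig1 (chr7:13278841-13278870, plus strand): cgccaaagtgcGCGCGAAAtctgtgtggcg
Mcm6 held 3 matches, of which those at 110 and 106 bases before the start overlap, and the third at 47 bases before it. Pola1 had its match 138 bases before the start, Orc3 41 bases before it, and Mcm7 had matches 165 bases before and 17 bases after. A match describes letters only, and binding of E2F was not measured.

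The 8 genes of licence loading, ORC, Cdc6 and Cdt1, had a median log2 fold change of -0.18 (-0.04 without replicate 3), and none of the 8 changed by the test. Orc3 (chr4:34570796-34614944 in mm10, minus strand, 21 exon blocks), a core ORC subunit, was at 19.9, 17.8 and 18.2 CPM in the Cre-positive libraries and at 21.1, 21.5 and 21.5 CPM in the Cre-negative ones. The groups did not overlap, and replicate 3 was not the lowest. The log2 fold change of Orc3 was -0.20 (SE 0.08, adjusted p = 0.240, edgeR), and -0.18 without replicate 3. Cdt1, which brings the MCM ring to ORC, was at 40.0, 40.2 and 30.1 CPM against 43.6, 43.4 and 43.5 CPM. All 3 Cre-positive libraries lay below the Cre-negative ones, replicate 3 most, and the log2 fold change was -0.24 (SE 0.12, adjusted p = 0.324), or -0.12 without replicate 3. The remaining genes overlapped between groups: Orc1, Orc2, Orc4, Orc5, Orc6 and Cdc6 had log2 fold changes from -0.21 to 0.00. Without replicate 3 they ran from -0.06 for Orc6 to 0.07 for Orc2, and Orc2 and Orc5 changed sign. Per exon length the complex was uneven, from 1.74 RPKM (CPM per kilobase of exon) for Orc1 to 13.1 RPKM for Orc6. Orc1 encodes the largest ORC subunit.

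The 6 genes of the MCM2-7 helicase included the most abundant transcript of the 45 per exon length, Mcm6, and lay at a median log2 fold change of -0.35. Their summed level was 587, 586 and 376 CPM against 667, 578 and 688 CPM, so that only replicate 3 fell outside the Cre-negative range. Mcm6 (chr1:128331591-128359656, minus strand, 17 exon blocks) was at 119, 111 and 83.4 CPM against 136, 125 and 138 CPM. Its groups did not overlap, with a log2 fold change of -0.35 (SE 0.13, adjusted p = 0.234). Mcm7 (chr5:138164583-138172422, minus strand, 15 exon blocks) was at 86.7, 89.0 and 65.7 CPM against 98.5, 95.2 and 107 CPM. Its groups did not overlap either, with a log2 fold change of -0.32 (SE 0.12, adjusted p = 0.237). Both promoters, printed above, hold more than 1 match to the E2F letters, though the other Mcm7 window holds none. The promoters of Mcm3 and Mcm5, whose groups overlapped, also hold more than 1 match. Without replicate 3, Mcm6 had -0.21 and Mcm7 -0.19. Mcm2, Mcm3, Mcm4 and Mcm5 overlapped between groups through Cre-negative replicate 2, at log2 fold changes of -0.35, -0.34, -0.17 and -0.38. Without replicate 3 these were -0.12, -0.11, -0.01 and -0.16, and the median of the 6 genes was -0.14. Exon-length levels of the 6 subunits ran only from 20.4 RPKM for Mcm7 to 40.9 RPKM for Mcm6. Mcm4 took 15.8%, 16.0% and 17.2% of the 6 genes' RPKM sum in the Cre-positive libraries and 14.6%, 14.2% and 14.8% in the Cre-negative ones, a difference without overlap that was not tested. Ap4m1, on the opposite strand, covers 7.25% of the Mcm7 exons, and the labels give no strand setting for the counting, so reads there could belong to either gene.

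**Figure D3:**
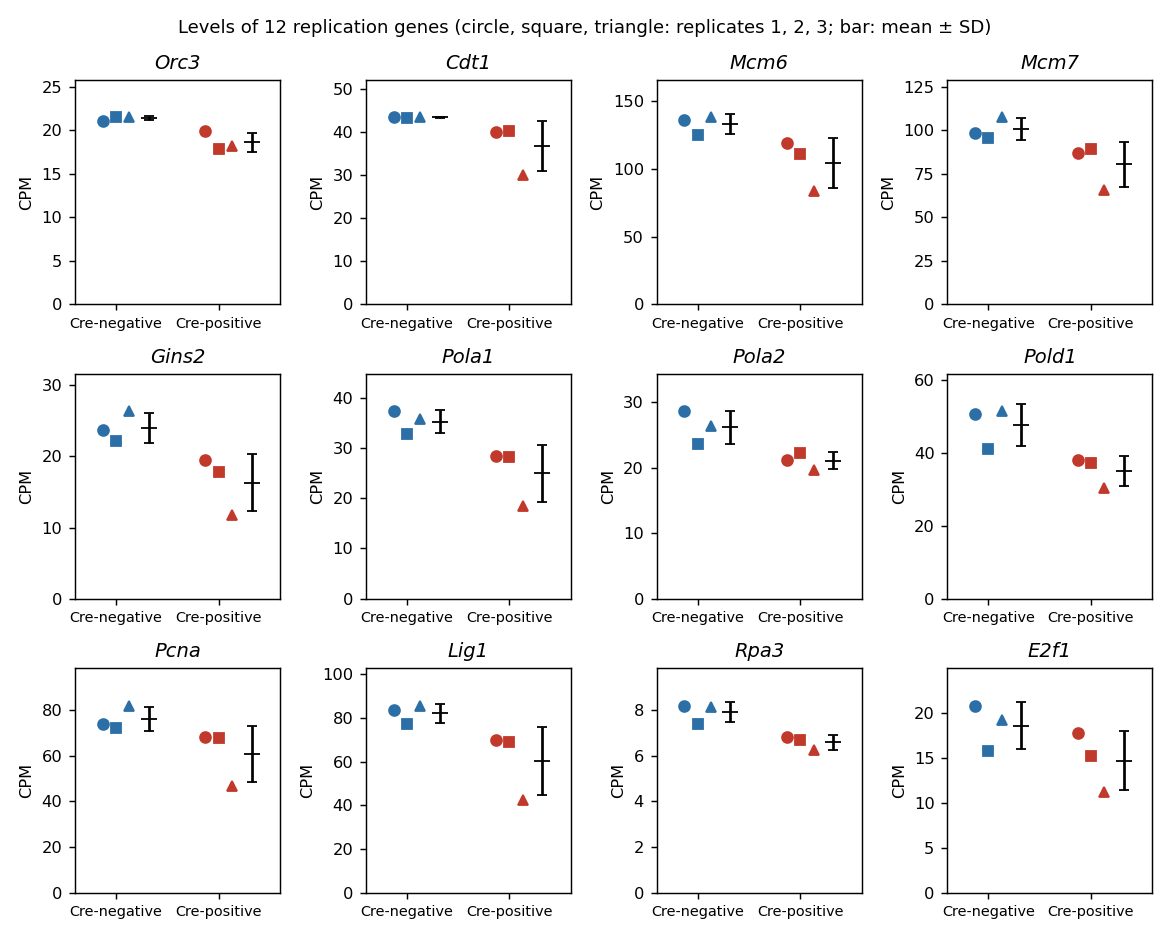
CPM of 12 replication genes in each library (points), with the mean and SD of each group (n = 3). In Pola1 and Pold1 the 3 Cre-positive points lie below all Cre-negative ones, and in Mcm6 they lie at 83.4 to 119 CPM against 125 to 138 CPM.

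The helicase activators included the gene with the lowest log2 fold change of the 45. Gins2 (chr8:120578633-120589304, minus strand, 5 exon blocks), a subunit of the GINS complex, was at 19.5, 17.7 and 11.7 CPM against 23.7, 22.1 and 26.3 CPM. All Cre-positive libraries lay below the Cre-negative ones, and the log2 fold change was -0.56 (SE 0.18, adjusted p = 0.191). It was -0.37 without replicate 3 (adjusted p = 0.0952). Exons of the antisense gene Gse1 cover 67.3% of the Gins2 exons, so its counts are uncertain. Gins4 was at 22.9, 24.3 and 20.2 CPM against 24.0, 25.8 and 25.2 CPM, with overlapping groups and a log2 fold change of -0.15 (SE 0.09, adjusted p = 0.397), or -0.08 without replicate 3. Gins2 took 15.4%, 13.59% and 12.04% of the RPKM sum of the 4 GINS genes against 16.9%, 16.3% and 18.1%, again without overlap and without a test. Shares of Pola1 (lower) and Rfc1 (higher) in their complexes also did not overlap between groups. Apart from these and Mcm4, all other subunits of MCM2-7, ORC, GINS, the clamp loader, RPA and polymerase alpha-primase had overlapping shares. By level, groups did not overlap in 28.0% of all genes tested. Whether subunit balance differed was not tested. Cdc45, Mcm10, Gins1 and Gins3 overlapped between groups, at -0.31, -0.14, -0.28 and -0.22. Without replicate 3 these were -0.09, 0.15, -0.12 and -0.000324, so that Mcm10 changed sign and the others moved towards 0. Mcm10, which helps the helicase start, was at 16.5 and 16.4 CPM in replicates 1 and 2, above the 13.8 to 15.5 CPM of the Cre-negative libraries, and at 7.41 CPM in replicate 3. GINS levels per exon length ranged from 2.11 RPKM for Gins3 to 17.4 RPKM for Gins4.

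Polymerase alpha and primase, the primer-making enzyme, had the lowest median deviations of the 10 role groups in replicates 1 and 2. For its 4 genes the median was -0.22, -0.25 and -0.72 in the Cre-positive libraries. All 4 genes in replicate 1, and 3 of the 4 in replicate 2, were below every Cre-negative library, beside 30.9% and 32.4% of all genes. Pola1 (chrX:93304767-93632155, minus strand, 37 exon blocks), the catalytic subunit, was at 28.4, 28.2 and 18.4 CPM against 37.3, 32.9 and 35.7 CPM. The groups did not overlap and the Cre-positive mean was 70.7% of the Cre-negative one, with a log2 fold change of -0.50 (SE 0.17, adjusted p = 0.196). Without replicate 3 it was -0.32, with the smallest adjusted p of the 45 genes in that fit (0.0812). Pola2, its regulatory subunit (chr19:5940543-5964206, minus strand, 19 exon blocks), was at 21.2, 22.3 and 19.7 CPM against 28.6, 23.6 and 26.3 CPM. The 3 Cre-positive values were close together and below all Cre-negative ones, and the log2 fold change was -0.31 (SE 0.10, adjusted p = 0.179) and -0.27 without replicate 3. Prim1, the catalytic primase subunit, was at 28.3, 25.8 and 19.9 CPM against 32.1, 29.5 and 32.4 CPM, also without overlap, at -0.34 (SE 0.13, adjusted p = 0.233) and -0.21 without replicate 3. Prim2, the large primase subunit, was at 16.7, 18.2 and 10.3 CPM against 18.2, 17.1 and 18.4 CPM. Its groups overlapped, and the log2 fold change was -0.25 (SE 0.20, adjusted p = 0.522), but -0.04 without replicate 3. The median of the 4 genes was -0.33 with all libraries and -0.24 without replicate 3. Within the males 3 of these 4 genes lay below Cre-negative replicate 2 in both Cre-positive libraries, at a median difference of -0.12, whereas of the 6 MCM genes 2 lay below and 4 above it, at 0.06. Whether the groups of genes differ was not tested.

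**Figure D4:**
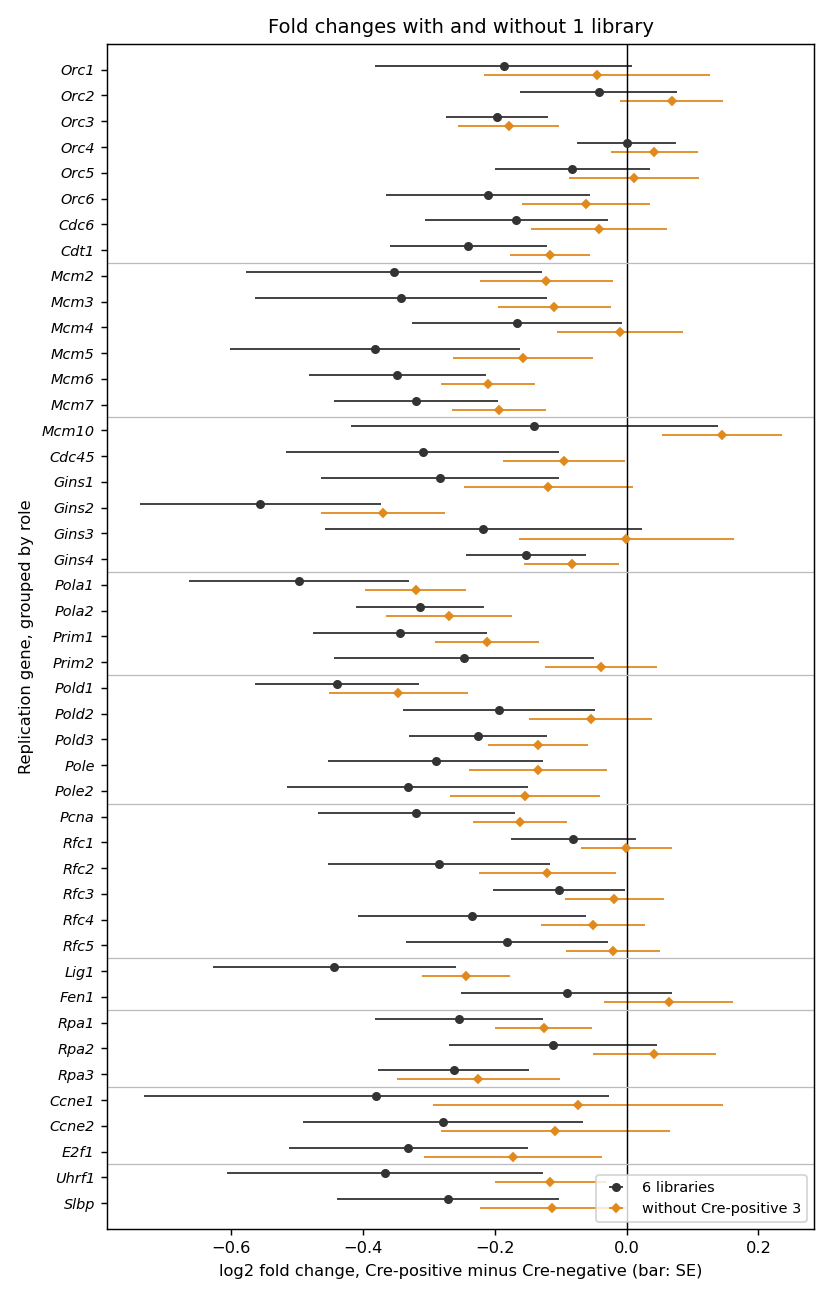
Log2 fold change (Cre-positive minus Cre-negative, bars SE) of the 45 replication genes with all 6 libraries and without Cre-positive replicate 3. With all libraries 44 genes lie below 0 and the median is -0.26; without replicate 3, 39 lie below 0 and the median is -0.11.

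Among the elongating polymerases, Pold1 (chr7:44532746-44548849, minus strand, 24 exon blocks), the catalytic subunit of polymerase delta, was at 37.8, 37.0 and 30.3 CPM against 50.5, 41.0 and 51.3 CPM. The groups did not overlap, with means of 35.05 ± 4.12 and 47.6 ± 5.71 CPM (SD, n = 3 each), and the log2 fold change was -0.44 (SE 0.12). This was the smallest p among the 45 genes, 0.00894 unadjusted and 0.156 adjusted by edgeR. Without replicate 3 it was -0.35 (adjusted p = 0.137). The accessory subunit Pold3 was at 27.5, 24.9 and 21.4 CPM against 27.9, 28.6 and 29.9 CPM, without overlap, at -0.23 (SE 0.10, adjusted p = 0.295) and -0.13 without replicate 3. Pold2 was at 31.9, 33.2 and 23.5 CPM against 34.4, 30.2 and 36.8 CPM, with replicates 1 and 2 inside the Cre-negative range, at -0.19 (SE 0.15, adjusted p = 0.498) and -0.05 without replicate 3. Of polymerase epsilon, the catalytic gene Pole had a log2 fold change of -0.29 with overlapping groups, and Pole2 of -0.33 without overlap. Without replicate 3 they were at -0.13 and -0.15.

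Pcna (chr2:132249162-132253314, minus strand, 5 exon blocks), the ring that holds polymerases on DNA, was at 68.3, 67.5 and 46.7 CPM against 74.0, 71.9 and 81.9 CPM. All Cre-positive libraries were below the Cre-negative ones, replicates 1 and 2 narrowly, and the log2 fold change was -0.32 (SE 0.15, adjusted p = 0.299), or -0.16 without replicate 3. Its near-identical copy Pcna-ps2 had 155 to 366 counts beside 983 to 2221 for Pcna, so the split of reads between them is uncertain. Rfc2, the most abundant clamp-loader subunit per exon length at 22.8 RPKM, was at 36.7, 33.3 and 23.7 CPM against 39.7, 33.3 and 41.3 CPM. Its groups overlapped, at -0.28 (SE 0.17, adjusted p = 0.399) and -0.12 without replicate 3. Rfc4 lay at -0.23 without overlap, and Rfc1, Rfc3 and Rfc5 overlapped at -0.08, -0.10 and -0.18. Without replicate 3 these 4 clamp-loader genes ran from -0.05 for Rfc4 to -0.000467 for Rfc1.

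Lig1 (chr7:13277283-13311433, plus strand, 30 exon blocks), the ligase that joins Okazaki fragments, was at 69.8, 68.9 and 42.2 CPM against 83.6, 77.1 and 85.6 CPM. The groups did not overlap, and the log2 fold change was -0.44 (SE 0.18, adjusted p = 0.257). It was -0.24 without replicate 3 (adjusted p = 0.108). Fen1, the nuclease that trims the flap before Lig1 acts and that also acts in ribonucleotide excision repair, was at 40.6, 45.3 and 29.6 CPM against 43.8, 36.5 and 42.8 CPM. Its groups overlapped, at -0.09 (SE 0.16, adjusted p = 0.788) with all libraries and at 0.06 without replicate 3. Among the single-strand binding proteins, Rpa3 was at 6.82, 6.68 and 6.22 CPM against 8.18, 7.39 and 8.11 CPM. Its groups did not overlap, and replicate 3 was close to the other Cre-positive libraries, at -0.26 (SE 0.11, adjusted p = 0.276) and -0.22 without it. Rpa1 was at 61.5, 59.5 and 44.9 CPM against 68.8, 60.8 and 68.5 CPM, with overlap through replicate 1, at -0.25 with all libraries and -0.13 without replicate 3. Rpa2 was at 34.1, 38.2 and 24.9 CPM against 34.8, 32.2 and 38.2 CPM, with overlap, at -0.11 (SE 0.16, adjusted p = 0.727) with all libraries and 0.04 without replicate 3. The 3 RPA genes spanned 6.37 to 11.3 RPKM.

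**Figure D5:**
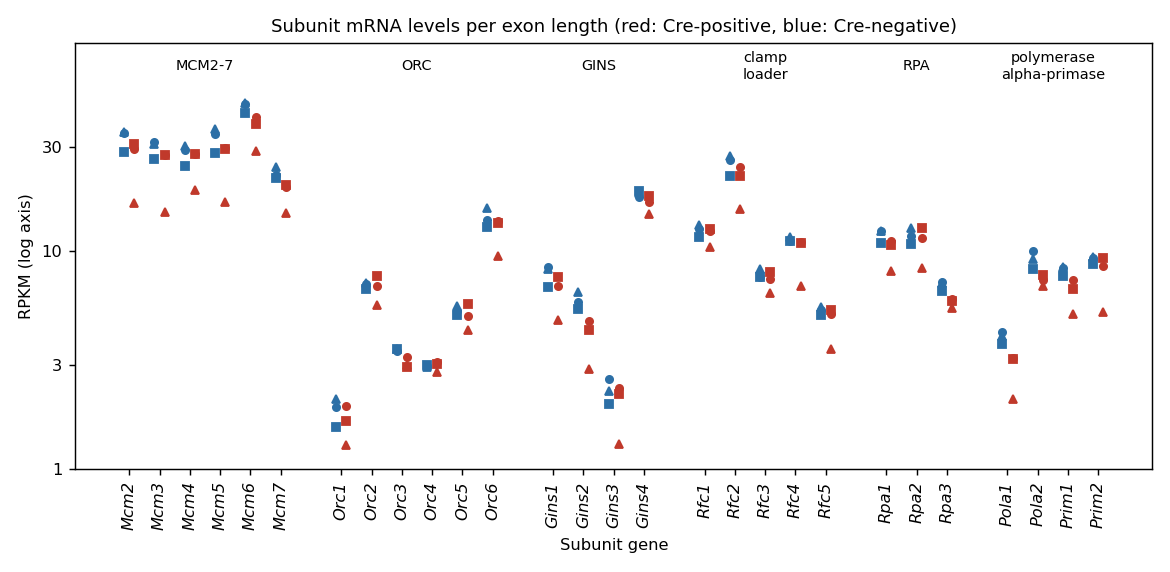
Level per exon length (RPKM, log axis) of the subunits of each replication complex in each library, Cre-positive and Cre-negative. The MCM2-7 subunits lie within a ratio of 2.004 of each other by their means, and the GINS subunits span a ratio of 8.23.

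The remaining genes drive or accompany S phase. E2f1, the transcription factor that switches many of these genes on, was at 17.7, 15.1 and 11.2 CPM against 20.8, 15.7 and 19.1 CPM. The groups overlapped through Cre-negative replicate 2, at a log2 fold change of -0.33 (SE 0.18, adjusted p = 0.363), or -0.17 without replicate 3. Ccne2, a cyclin that activates Cdk2 at the G1/S border, was at 7.07, 8.41 and 5.08 CPM against 9.95, 7.19 and 7.84 CPM, at -0.28 (SE 0.21, adjusted p = 0.504) and -0.11 without replicate 3. Its close relative Ccne1 was at 8.97, 9.65 and 3.85 CPM against 11.3, 6.82 and 11.3 CPM. In both cyclin genes replicate 3 was the lowest library, and Ccne1 was at -0.38 with it and -0.07 without it. Uhrf1, which guides DNA methylation behind the fork, was at 128, 129.6 and 66.9 CPM against 142, 126 and 151 CPM. Only replicate 3 lay outside the Cre-negative range, and the log2 fold change was -0.37 (SE 0.24, adjusted p = 0.439), or -0.12 without replicate 3. Slbp, the binding protein of replication-dependent histone mRNAs, was at 33.9, 32.5 and 22.8 CPM against 38.3, 30.6 and 38.8 CPM, at -0.27 (SE 0.17, adjusted p = 0.418) and -0.11 without replicate 3. Antisense partners also overlap exons of Ccne2 (Ints8, 17.4%), Rfc4 (Eif4a2, 12.6%), Orc2 (Nif3l1, 12.03%), Rfc5 (Wsb2, 10.7%), Cdc45 (Ufd1, 9.28%), Orc4 (Acvr2a, 5.98%), Lig1 (Zswim9, 5.79%) and Fen1 (Tmem258, 5.37%).

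Around the machinery, 60 further genes of origin firing, fork protection, chromatin assembly and G1/S control were tested. None passed the threshold in edgeR in either direction, 47 of the 60 (78.3%, beside 51.0% of all genes) had a log2 fold change below 0, and the median was -0.14. Without replicate 3, 33 of the 60 were below 0 and the median was -0.02. At an unadjusted p under 0.05 edgeR gave 8 (13.3%, below the 18.8% of all genes), of which 4 were lower. DESeq2 called 2 of the 60 higher, Rb1 (adjusted p = 0.0273) and Cdkn1a (adjusted p = 0.0307). Over all 15525 genes DESeq2 called 837 in either direction. Rb1, which holds E2F factors inactive, was at 37.0, 36.6 and 37.5 CPM against 31.7, 27.9 and 28.5 CPM. All Cre-positive libraries were above the Cre-negative ones and close together, with a log2 fold change of 0.33 (SE 0.08, adjusted p = 0.118, edgeR) and 0.33 without replicate 3. Its exons overlap the antisense genes Lpar6 and Rcbtb2 by 6.78% and 8.11%. Cdkn1a, the p53-driven inhibitor of cyclin-dependent kinases, which also binds Pcna, was at 361, 420.1 and 498 CPM against 328, 316 and 300.01 CPM. The groups did not overlap, and Cdkn1a was highest in replicate 3, the library with the lowest replication genes, at 0.44 (SE 0.13, adjusted p = 0.163, edgeR) and 0.31 without replicate 3.

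Cdc7, the kinase that fires licensed origins, was at 12.1, 11.99 and 8.93 CPM against 16.2, 12.9 and 15.3 CPM, without overlap, at -0.42 (SE 0.15, adjusted p = 0.215) and -0.29 without replicate 3. Chtf8, a subunit of an alternative clamp loader that overlaps antisense Has3 exons by 11.6%, was at 66.1, 72.0 and 47.0 CPM against 82.8, 85.4 and 87.0 CPM, at -0.46 (SE 0.15, adjusted p = 0.187) and -0.30 without replicate 3. Both had every Cre-positive library below the Cre-negative ones. Cdk2, the partner kinase of cyclin E, was at 78.1, 76.0 and 70.8 CPM against 61.3, 68.6 and 64.4 CPM, at 0.21 (SE 0.07, adjusted p = 0.212). Fbxw7, a ubiquitin ligase subunit that marks cyclin E for degradation, was at 44.2, 40.3 and 43.6 CPM against 34.6, 38.2 and 35.9 CPM, at 0.24 (SE 0.08, adjusted p = 0.189). Both were higher in every Cre-positive library. By group, 10 of 11 fork protection genes were below 0 (median -0.23), as were 9 of 10 origin firing genes (-0.18), 6 of 6 chromatin assembly genes (-0.24) and 10 of 13 G1/S regulators (-0.12), whereas E2F and pocket protein genes split 6 to 6 (0.01). Without replicate 3 the counts below 0 were 9 of 11 (median -0.03), 4 of 10 (0.03), 6 of 6 (-0.07), 4 of 13 (0.04) and 5 of 12 (0.06). The origin firing genes and G1/S regulators thus no longer lay mostly below 0. Of the 8 accessory subunits and MCM relatives, 6 were below 0 with all libraries (median -0.08) and 5 without replicate 3 (-0.03).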

How the data were processed

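The values deposited by the authors are unnormalized read counts per gene for the 6 libraries, per the file headers. GSNAP and featureCounts were used on mm10, per the submitters' processing notes. Versions, strand setting and treatment of shared reads: not given in the sources used here. Genes were named by Ensembl identifier (37607 of 38924 matched a symbol). Genes were kept by filterByExpr (minimum count 10), scaled by TMM and tested two-sided in edgeR 4.0.16 (quasi-likelihood, R 4.3.3), with Benjamini-Hochberg adjustment over 15525 genes and a threshold of 0.05. CPM uses TMM-scaled library sizes, RPKM divides it by exon length, and 3 counts equal 0.0922 to 0.143 CPM, for counting error only. Log2 deviations use a prior count of 2. DESeq2 1.42.0 and limma 3.58.1 (voom) served as alternatives, beside other scalings and filters, sex as a covariate (read from Xist and Y-linked genes) and leaving out each library.

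Library values are given for the 2 genes of each role with the smallest unadjusted p and the one with the highest RPKM, for 6 pathway genes by p, and for Rnaseh2b; Prim1, Mcm10, Ccne1, the marker genes and other single values were chosen after values were seen. The genes and lists were chosen with earlier results of these data known. Flg and Trdc, 2 listed markers, matched no row.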

Additional observations from a re-analysis of the deposited data

How the results depend on the processing

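No replication gene passed the threshold under any alternative, and between 39 and 45 of the 45 lay below 0, with medians from -0.37 to -0.11. Scaling by total count moved the median of all genes to -0.12 and that of the replication genes to -0.37. Leaving out a library gave Fen1 from -0.22 to 0.064 and Rpa2 from -0.25 to 0.042, and both changed sign without Cre-positive replicate 3, as did Mcm10 (-0.14 to 0.15), Orc2 (-0.04 to 0.07) and Orc5 (-0.08 to 0.01); the cause was not tested. Leaving out a library gave 15 to 32 replication genes without overlap (32 without Cre-negative replicate 2), beside 33.5% to 41.0% of all genes. Without Cre-positive replicate 3, 15 of them were lower and 2 higher. Of all genes, 17 were called lower and 63 higher; leaving out a library gave 0 to 134 and 0 to 288. The counts lower and higher were 283 and 554 with DESeq2, 38 and 104 without a filter, 8 and 34 with sex as a covariate, and 1 and 2 against a 1.5-fold change, and total count scaling gave 27 higher. DESeq2 called 2 other pathway genes higher. The adjusted p of Rnaseh2b was 0.0508 to 0.124 without Cre-positive replicate 2 or without any 1 Cre-negative library. No paired analysis was possible because the labels give the groups no shared replicate numbers.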
